A study of Homo sapiens with 6 samples.

Results

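The semaphorins, plexins, ephrins, EPH receptors, SLITs, ROBOs, netrins and netrin receptors of human UE7T-9 cells were compared between cells overexpressing SHC4 and control cells. The genes were taken by a rule on the symbol, which was set with earlier results of these data known. It took protein-coding genes whose symbol starts with SEMA, PLXN, EPHA, EPHB, EFNA or EFNB. Also taken were SLIT1 to SLIT3, ROBO1 to ROBO4, NTN1, NTN4, UNC5A to UNC5D, DCC and NEO1. Of the 66 genes this rule takes from the GENCODE 29 annotation, 65 were among the 28181 genes with values, and DCC was not analysed here. UE7T-9 cells are mesenchymal stromal cells from human bone marrow, kept as a line that was immortalized with the hTERT and human papillomavirus E7 genes and grown in DMEM. The 3 UE7T-9 SHC4 libraries came from cells given SHC4 by a lentiviral CMV-promoter vector with puromycin selection (labelled SHC4-OE), and the 3 UE7T-9 Cont libraries from cells given GFP by the same kind of vector (labelled Nontarget, genotype WT). The labels call each library a bio rep. The sources used here do not settle if a group's libraries came from different clones, infections or cultures. Each p-value therefore measures the spread among these libraries, which may be technical. SHC4 encodes an adaptor protein of the SHC family, and the study compared these cells to see which genes accompany its overexpression.

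These gene families steer cells and cell processes by contact and by secreted cues, and are best known from growing axons and vessels. Semaphorins act through plexins, with neuropilins as co-receptors for most secreted class 3 members. Membrane-bound ephrins bind EPH receptor tyrosine kinases on neighbouring cells, secreted SLIT proteins bind ROBO receptors, and netrins bind DCC, neogenin (NEO1) and the UNC5 receptors. In bone and marrow stroma, semaphorins and ephrins are known as signals between osteoblasts, osteoclasts and stromal cells.

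The paralogs SLIT2 and SLIT3 differed between the groups in opposite directions, and their sequence context is shown for that reason, chosen after their values were seen. The windows below are the 250 bases before each RefSeq transcription start in GRCh38.p14, at chr4:20251655-20251904 on the plus strand for SLIT2 and at chr5:169301140-169301389 on the minus strand for SLIT3, written 5′ to 3′ on the strand of the gene. Neither window overlaps an exon that GENCODE 29 gives to its gene. The RefSeq start lies 1355 bases from the GENCODE start of SLIT2 and 10 bases from that of SLIT3. Capitals mark matches, on either strand, to the motifs searched.
SLIT2 promoter: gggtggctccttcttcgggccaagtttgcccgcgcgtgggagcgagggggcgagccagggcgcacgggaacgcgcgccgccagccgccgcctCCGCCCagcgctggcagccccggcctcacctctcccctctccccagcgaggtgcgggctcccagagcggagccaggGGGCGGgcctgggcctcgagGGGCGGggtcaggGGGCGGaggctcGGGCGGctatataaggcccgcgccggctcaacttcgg
SLIT3 promoter: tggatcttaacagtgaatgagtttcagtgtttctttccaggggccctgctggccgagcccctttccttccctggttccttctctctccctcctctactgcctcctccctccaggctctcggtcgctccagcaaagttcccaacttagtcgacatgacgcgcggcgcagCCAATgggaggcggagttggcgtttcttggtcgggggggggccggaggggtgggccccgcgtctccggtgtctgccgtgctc
The SLIT2 window had a GC content of 77.2% and 5 matches to the GC box GGGCGG, and the SLIT3 window had a GC content of 62.8% and 1 match to the CCAAT box (letters CCAAT). Of all 35093 RefSeq promoter windows of this length, 42.6% held a GC box and 32.0% a CCAAT box. The guidance genes had 89 windows from 57 genes, of which 70.8% held a GC box, beside 53.7% of the 22179 windows of protein-coding genes. For the other motifs the shares of guidance windows and of protein-coding windows were 29.2% and 32.7% for the CCAAT box, 3.37% and 9.01% for the TATA box, 1.12% and 5.35% for AP-1, 7.87% and 10.5% for TEAD, and 5.62% and 5.92% for STAT. Neither SLIT window held the STAT motif TTCNNNGAA (6.57% of all windows), the AP-1 motif TGANTCA (6.57%) or the TEAD motif GGAATG (11.9%). The letters TATAAA, searched as the TATA box (10.7%), were in neither window. Variants of these letters were not counted, such as tatataag, which the SLIT2 window holds near its end. All motifs were searched on both strands, and a match describes the letters only.

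Both genes also carry a microRNA in an intron and on the gene's own strand. MIR218-1 lies in intron 16 of the SLIT2 transcript with 39 exons and MIR218-2 in intron 14 of the SLIT3 transcript with 36 exons. Their mature 5p arms, at chr4:20528299-20528319 and chr5:168768211-168768231, have the same sequence and so the same seed (bases 2 to 8, in capitals), while the 3p arms differ.
hsa-miR-218-5p: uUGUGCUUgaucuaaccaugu
hsa-miR-218-1-3p: aUGGUUCCgucaagcaccaugg
hsa-miR-218-2-3p: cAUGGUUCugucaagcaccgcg
The libraries counted gene-level RNA and not mature microRNA, so no value of miR-218 is given here.

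The 6 libraries held 18144993 to 27721397 reads assigned to genes, so that 3 reads correspond to 2.50 to 3.53 normalized counts, the unit of the values below (reads of a gene divided by a size factor of the library). SHC4 was measured at 56.5, 157 and 130 normalized counts in UE7T-9 Cont and at 134870, 119166 and 155006 in UE7T-9 SHC4, in accord with the labels (limma log2 fold change 10.32 ± 0.32 SE, Benjamini-Hochberg adjusted p = 2.09e-06). All 12 mesenchymal stromal markers examined were listed, with summed levels of 213987 to 653335 in the controls and 409103 to 601153 in UE7T-9 SHC4. With DESeq2, 2 of the 12 were higher (LEPR and PDGFRB; beside 2.06% of all genes) and none lower. At an unadjusted limma p below 0.05, 4 of the 12 were higher (beside 7.47% of all genes) and none lower. Markers of other cells were low, with sums of 228 to 418 against 279 to 349 for 6 listed haematopoietic genes, 125 to 306 against 112 to 270 for 8 endothelial genes, 97.7 to 197 against 29.97 to 119 for 6 epithelial genes, and 0.98 to 5.85 against 0.88 to 3.33 for 2 listed muscle genes. CD3E, MYOD1 and MYOG had no reads or were not listed. KRT18, 1 of the 6 epithelial genes, was lower with DESeq2 (beside 2.08% of all genes), and the part of other cell types in the results below was not tested. Across genes tested, control replicate 1 had Pearson correlations of 0.975, 0.969 and 0.968 with SHC4 replicates 1, 2 and 3. Its correlations with the other controls were 0.967 and 0.962, so results that rest on control replicate 1 are given with and without it.

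Of the 65 guidance genes, 61 had a mean of at least 1 normalized count and were tested. EPHA8, EPHA10, EFNA2 and UNC5D lay under that mean, with at most 4.71 normalized counts in any library. Per kb of exon, the levels of the tested genes ran from 0.777 to 2227 normalized counts. The plexin receptor PLXNB2 was the most abundant at 2227 per kb (mean of 6 libraries), followed by the secreted laminin-related ligand NTN4 at 1634, the class 3 semaphorin SEMA3C at 836, the ephrin-A receptor EPHA2 at 632 and the GPI-anchored semaphorin SEMA7A at 460. The leading members of the other families were the netrin receptor NEO1 at 301, the ligands EFNB1 at 250 and SLIT3 at 236, the ephrin-B receptor EPHB4 at 237, the SLIT receptor ROBO1 at 129 and the ligand EFNA5 at 93.0 per kb. In the plot of levels per kb the libraries of the groups lay over each other for most of these genes, and those of SLIT3 stood apart.

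**Figure D1:**
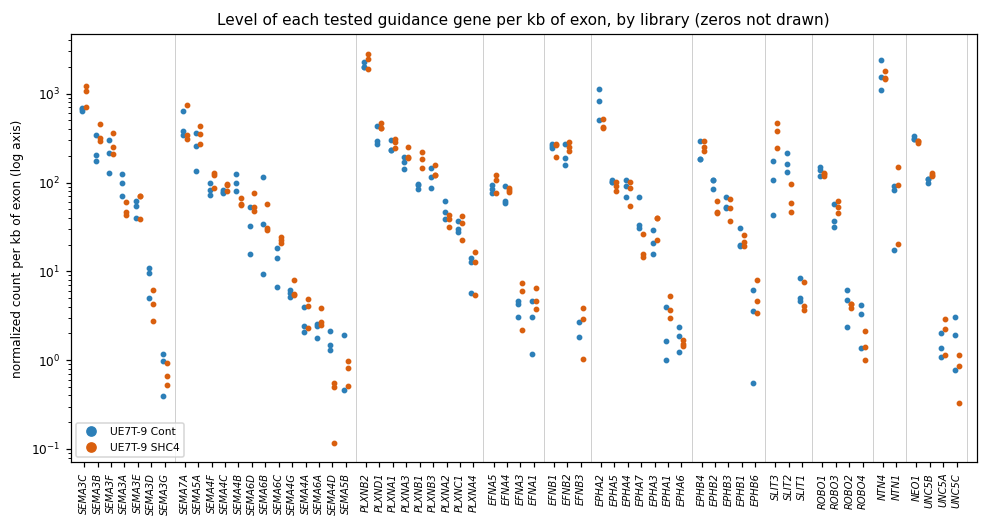
Normalized count per kb of exon (log axis) of each of the 61 tested guidance genes, ordered by family and level, with a point for each UE7T-9 Cont (blue) and UE7T-9 SHC4 (orange) library; values of 0 are not drawn. PLXNB2 was highest at a mean of 2227 per kb, and the group mean of SLIT3 was below that of SLIT2 in UE7T-9 Cont and above it in UE7T-9 SHC4.

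With limma, no guidance gene passed an adjusted p of 0.05 with a log2 fold change beyond 1, and the lowest Benjamini-Hochberg adjusted p among them was 0.0840 (PLXNB1 and EPHB2). Over all 23040 genes tested, 14 passed (0.0608%). At an unadjusted limma p below 0.05, 5 members were higher in UE7T-9 SHC4, which is 8.20% of those tested beside 7.47% of all genes, and 8 were lower, 13.1% beside 6.96%. The groups did not overlap for 5 members that were higher (8.20%, beside 9.13% of all genes) and 8 that were lower (13.1%, beside 10.2%). edgeR on the recovered reads gave none of 55 members an adjusted p below 0.05 (lowest 0.104), beside 11 of 15859 genes, of which 10 also had a log2 fold change beyond 1. DESeq2 on the same reads gave 8 of 56 members an adjusted p below 0.05. Of these, 2 were higher (SLIT3 and PLXNB1; 3.57%, beside 2.06% of all genes) and 6 lower (EPHA2, EPHA7, EPHB2, SLIT2, SEMA3A and SEMA4B; 10.7%, beside 2.08%). Only SLIT3, SLIT2 and EPHA7 among them also had a DESeq2 log2 fold change beyond 1 (5.36%, beside 2.2% of all genes). The calls therefore depended on the test, and the genes below are described by their values first.

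The log2 fold change was above 0 for 39 of the 61 tested members (63.9%, beside 49.7% of all genes), and their median was 0.18 beside -0.00 over all genes. Scaling to library size moved the median of all genes to -0.10 and that of the members to 0.08. Ligands (32 tested) had a median of 0.23 and receptors (29 tested) of 0.04. Plexins lay above 0 in 8 of 9 cases, ephrins in 6 of 7 and membrane-bound semaphorins in 10 of 13, whereas 8 of 12 EPH receptors lay below 0 with a median of -0.17. These counts describe the families and were not tested as lists. Some members counted lay near 0 and took both signs when a library was left out, such as PLXNC1 (0.04), PLXNA4 (0.05) and SEMA7A (-0.02). Among the ephrins above 0, EFNA1, EFNA3 and EFNB3 were low in every library.

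**Figure D2:**
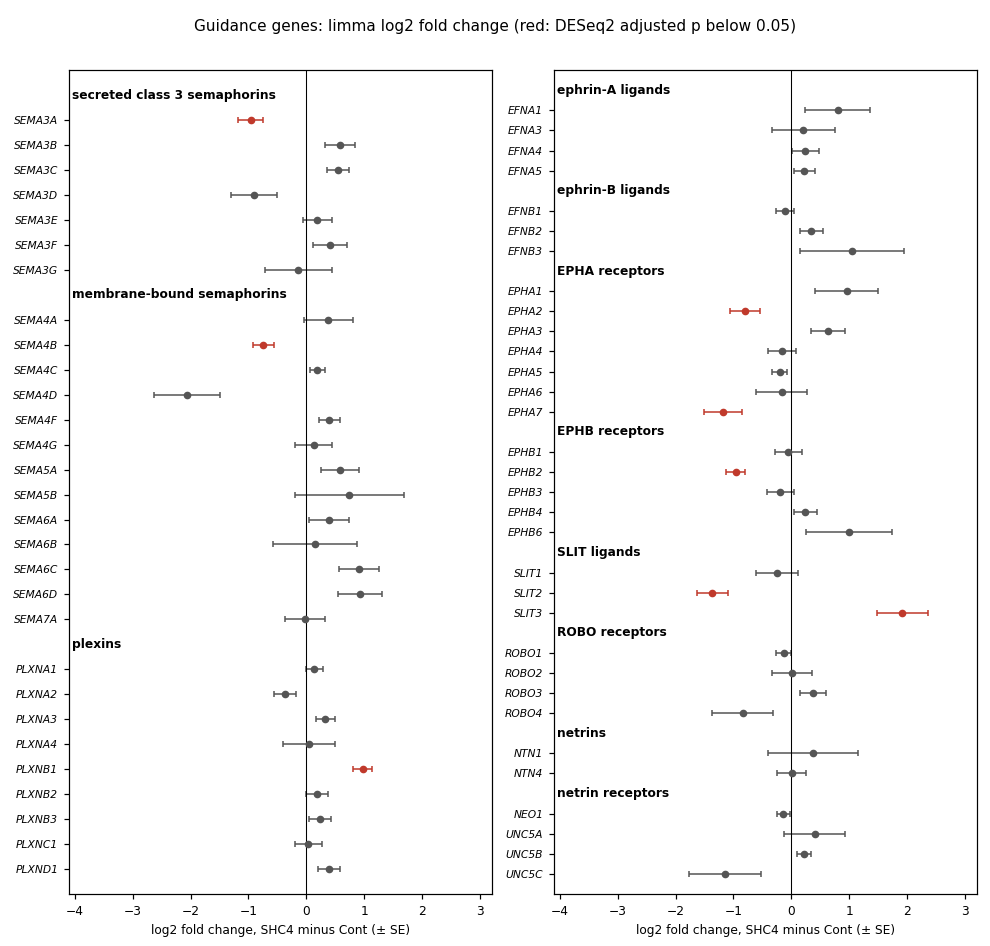
limma log2 fold change (UE7T-9 SHC4 minus UE7T-9 Cont, on log2 of the normalized count plus 1) of the 61 tested guidance genes, with bars of ± 1 standard error, grouped by family; red marks the 8 genes with a DESeq2 adjusted p below 0.05. SLIT3 lay at 1.91 and SLIT2 at -1.37, and 8 of 12 EPH receptors lay below 0.

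Among the secreted SLIT ligands, which repel or guide cells that carry ROBO receptors, SLIT3 (ENSG00000184347, chr5:168661733-169301129, minus strand) was measured at 2484, 1542 and 616 normalized counts in UE7T-9 Cont and at 3483, 6617 and 5466 in UE7T-9 SHC4. All SHC4 libraries lay above all controls, with a 3.35-fold higher mean (limma log2 fold change 1.91 ± 0.44 SE, adjusted p = 0.151, DESeq2 adjusted p = 0.00182). SLIT2 (ENSG00000145147, chr4:20253260-20620561, plus strand) was measured at 1570, 1289 and 2067 in the controls and at 945, 566 and 452 in UE7T-9 SHC4. Here all SHC4 libraries lay below all controls, with a mean 2.51-fold lower (limma log2 fold change -1.37 ± 0.27 SE, adjusted p = 0.111, DESeq2 adjusted p = 0.000809). Per kb of exon, SLIT3 over SLIT2 was 1.08, 0.815 and 0.203 in the controls and 2.51, 7.96 and 8.24 in UE7T-9 SHC4, so that the more abundant SLIT transcript was SLIT3 in every SHC4 library and in 1 of 3 controls. The ratio, chosen after its values were seen, gave a two-sided exact permutation p of 0.1, the smallest that 3 against 3 libraries allow. Since SLIT3 and SLIT2 each separated the groups, in opposite directions, this p could not have come out otherwise and adds no support. SLIT1 was low, at 42.3 to 77.0 normalized counts in the controls and 33.8 to 69.4 in UE7T-9 SHC4. About 4.65% of the exon bases of SLIT3 are shared with antisense genes, and since no source gives the strand setting of the counting, those reads cannot be told apart.

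No ROBO receptor had an adjusted p below 0.05 with limma, DESeq2 or edgeR. ROBO1, the most abundant of them, was measured at 1489, 1284 and 1632 normalized counts in UE7T-9 Cont and at 1375, 1350 and 1280 in UE7T-9 SHC4, with overlapping groups (limma log2 fold change -0.13, 95% confidence interval -0.42 to 0.15, adjusted p = 0.678). ROBO2 and ROBO3 had limma log2 fold changes of 0.01 and 0.37, and ROBO4, which is best known from endothelium, lay at -0.84 from low levels of 6.99 to 29.5 normalized counts. None of the 4 had an unadjusted limma p below 0.05 or groups that did not overlap. Summed per kb, the SLITs were higher in all SHC4 libraries (349, 526 and 434, beside 344, 246 and 261 in the controls), while the ROBO sums overlapped (168 to 194, beside 163 to 202).

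EPH receptors are receptor tyrosine kinases, and 3 of the 12 tested were lower with DESeq2 (25%, beside 2.08% of all genes). Neither limma nor edgeR called any EPH receptor (lowest edgeR adjusted p = 0.123). EPHB2 (ENSG00000133216, chr1:22710839-22921500, plus strand) was measured at 1345, 1051 and 1332 normalized counts in the controls and at 765, 589 and 561 in UE7T-9 SHC4. The groups were well apart, with a mean 1.95-fold lower (limma log2 fold change -0.96 ± 0.16 SE, adjusted p = 0.0840, DESeq2 adjusted p = 0.000223). EPHA7 (ENSG00000135333, chr6:93240020-93419547, minus strand) was measured at 511, 250 and 230 in the controls and at 195, 118 and 107 in UE7T-9 SHC4. Control replicate 1 was far above the other controls, and all SHC4 libraries lay below all controls (mean 2.36-fold lower, limma log2 fold change -1.18 ± 0.33 SE, adjusted p = 0.192, DESeq2 adjusted p = 0.0247). Without that control library the EPHA7 value was -0.82 (limma adjusted p = 0.102).

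EPHA2 (ENSG00000142627, chr1:16124337-16156087, minus strand), a receptor for ephrin-A ligands and the most abundant EPH receptor here, was measured at 2104, 3429 and 4651 normalized counts in UE7T-9 Cont and at 2140, 1702 and 1751 in UE7T-9 SHC4. Libraries of both groups shared a range, since control replicate 1 lay below SHC4 replicate 1 (limma log2 fold change -0.80 ± 0.25 SE, adjusted p = 0.220, DESeq2 adjusted p = 0.0426). Without control replicate 1 the value was -1.11 (limma adjusted p = 0.00811). EPHB4, the usual receptor of ephrin-B2, had overlapping values of 1889, 1174 and 1176 in the controls and 1868, 1601 and 1442 in UE7T-9 SHC4 (limma log2 fold change 0.24, 95% confidence interval -0.20 to 0.69, adjusted p = 0.617). EPHB4 over EPHB2 per kb was 2.73, 2.17 and 1.72 in the controls and from 4.75 to 5.28 in UE7T-9 SHC4 (exact permutation p = 0.1, chosen after its values were seen). That p is the smallest this number of libraries allows. EPHB2 alone separated the groups while EPHB4 overlapped, so the ratio largely restates the EPHB2 values and adds no support. Of the other receptors, EPHA5 was lower without overlap but by a log2 fold change of only -0.20 (limma adjusted p = 0.498; named after its values were seen), and EPHA3 lay at 0.63 with overlapping groups. Summed per kb, the EPHA receptors were at 800, 1091 and 1348 in the controls and at 715, 639 and 682 in UE7T-9 SHC4, without overlap, and the EPHB receptors overlapped. EPHA2, whose own groups overlapped, gave the largest part of the EPHA sum. Its group mean was 816 of 1080 per kb in the controls and 448 of 678 in UE7T-9 SHC4. The sum therefore does not describe the family as a whole.

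None of the 7 tested ephrins had an unadjusted limma p below 0.05, and in all 7 the groups overlapped. EFNB1 was measured at 810, 855 and 904 normalized counts in UE7T-9 Cont and at 645, 890 and 870 in UE7T-9 SHC4 (limma log2 fold change -0.11, 95% confidence interval -0.45 to 0.23, adjusted p = 0.786). EFNA5 was measured at 535, 485 and 436 in the controls and at 436, 688 and 603 in UE7T-9 SHC4 (limma log2 fold change 0.23, 95% confidence interval -0.19 to 0.64, adjusted p = 0.614). Both intervals exclude a change of 2-fold in either direction. EFNB2, the ligand of EPHB4, lay at a log2 fold change of 0.34, and 26.2% of its exon bases are shared with an antisense gene. EFNA1, EFNA3 and EFNB3 were under 17 normalized counts in every library, and EFNA3 shares 44.7% of its exon bases with a readthrough gene on the same strand.

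Class 3 semaphorins are secreted, and SEMA3A, a repulsive cue for axons that also acts on bone cells, was lower. SEMA3A (ENSG00000075213, chr7:83955777-84492724, minus strand) was measured at 664, 936 and 1177 normalized counts in the controls and at 407, 435 and 560 in UE7T-9 SHC4. The groups did not overlap and the mean was 1.98-fold lower (limma log2 fold change -0.96 ± 0.21 SE, adjusted p = 0.146, DESeq2 adjusted p = 0.00522). SEMA3C, the most abundant semaphorin, was measured at 4242, 4006 and 4365 in the controls and at 4462, 7630 and 6725 in UE7T-9 SHC4. All SHC4 libraries lay above the controls, replicate 1 only slightly (limma log2 fold change 0.54 ± 0.19 SE, adjusted p = 0.265, DESeq2 adjusted p = 0.105). SEMA3C over SEMA3A per kb was 9.55, 6.40 and 5.55 in the controls and 16.4, 26.3 and 18.0 in UE7T-9 SHC4 (exact permutation p = 0.1, chosen after its values were seen). That p was also fixed beforehand, since each of the 2 genes alone separated the groups, in opposite directions. SEMA3D, at 40.0 to 87.7 normalized counts in the controls and 22.5 to 50.1 in UE7T-9 SHC4, had an unadjusted limma p of 0.049 with overlapping groups. Summed per kb, the class 3 semaphorins were higher without overlap (1464, 1905 and 1858, beside 1361, 1274 and 1223), a sum to which SEMA3C gave the largest part.

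Among membrane-bound semaphorins, SEMA4B (ENSG00000185033, chr15:90160604-90229679, plus strand) was measured at 567, 692 and 880 normalized counts in UE7T-9 Cont and at 468, 402 and 391 in UE7T-9 SHC4. The groups did not overlap (mean 1.70-fold lower, limma log2 fold change -0.74 ± 0.18 SE, adjusted p = 0.157, DESeq2 adjusted p = 0.0165). SEMA4D, a ligand of PLXNB1 that is known as an inhibitor of osteoblasts, was scarce, at 18.5, 21.2 and 30.5 in the controls and 7.91, 1.66 and 6.99 in UE7T-9 SHC4. Its groups did not overlap either, and 1 SHC4 library held no more than 3 reads (limma log2 fold change -2.06 ± 0.57 SE, adjusted p = 0.188, DESeq2 adjusted p = 0.0545). SEMA6C was measured at 106, 81.2 and 38.4 in the controls and at 120, 132 and 143 in UE7T-9 SHC4, without overlap (limma log2 fold change 0.91 ± 0.35 SE, adjusted p = 0.284, DESeq2 adjusted p = 0.221). SEMA6D, at 459, 277 and 136 beside 656, 405 and 449, had an unadjusted limma p of 0.038 with overlapping groups. SEMA7A, the most abundant of this family, spread widely within both groups, at 2423, 1463 and 1287 in the controls and 2846, 1184 and 1294 in UE7T-9 SHC4 (limma log2 fold change -0.02, 95% confidence interval -0.79 to 0.74, adjusted p = 0.984). SEMA7A was higher in the library numbered 1 of both groups than in the others.

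Plexins are the semaphorin receptors, and PLXNB1 (ENSG00000164050, chr3:48403854-48430051, minus strand), the receptor of SEMA4D, was measured at 922, 939 and 828 normalized counts in the controls and at 1415, 2149 and 1787 in UE7T-9 SHC4. The controls lay within a narrow range and every SHC4 library above it, with a mean 1.99-fold higher (limma log2 fold change 0.97 ± 0.16 SE, adjusted p = 0.0840, DESeq2 adjusted p = 0.000102). PLXNB2 was measured at 14426, 16400 and 14328 in the controls and at 13719, 20369 and 17741 in UE7T-9 SHC4, with overlapping groups (limma log2 fold change 0.18, 95% confidence interval -0.25 to 0.61, adjusted p = 0.704). The other 7 plexins had limma log2 fold changes of -0.36 (PLXNA2) to 0.39 (PLXND1), and their groups overlapped.

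**Figure D3:**
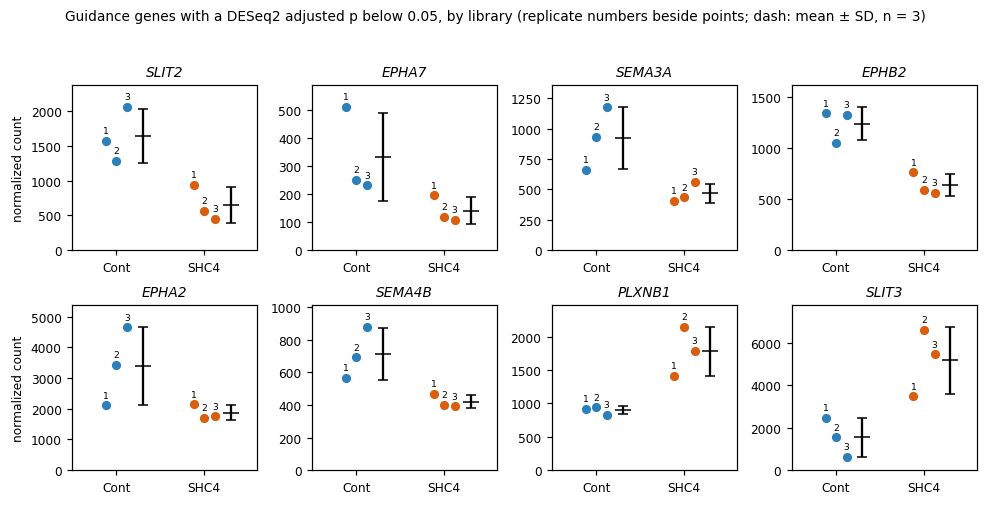
Normalized count in each library of the 8 guidance genes with a DESeq2 adjusted p below 0.05, with the replicate number beside each point and the mean ± SD (n = 3) as a dash with bars; each axis starts at 0. Groups overlap only for EPHA2, where control replicate 1 (2104) lies below SHC4 replicate 1 (2140).

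Netrins and their receptors gave no call with any of the 3 tools. NTN4 was measured at 4602, 9864 and 6399 normalized counts in UE7T-9 Cont and at 6283, 6107 and 7595 in UE7T-9 SHC4 (limma log2 fold change 0.00, 95% confidence interval -0.56 to 0.57, adjusted p = 0.999). NTN1, the classical axon-attracting netrin, was at 110 and 128 in the libraries numbered 1 and at 530 to 951 in the other 4, so its spread lay within the groups. NEO1 was measured at 2510, 2490 and 2687 in the controls and at 2240, 2357 and 2392 in UE7T-9 SHC4. Its groups did not overlap, yet the difference was small (limma log2 fold change -0.14, 95% confidence interval -0.39 to 0.11, adjusted p = 0.616). UNC5B, named after its values were seen, was higher without overlap, at 673 to 753 beside 816 to 873 (limma log2 fold change 0.22, adjusted p = 0.435). UNC5A and UNC5C were under 33 normalized counts in every library.

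Leaving out control replicate 1 gave 10 of 61 guidance genes a limma adjusted p below 0.05 (16.4%, beside 5.68% of all genes tested in that fit), and 5 of them also a log2 fold change beyond 1 (8.20%, beside 3.06%). The 10 were EPHA2, EPHB2, SLIT2, SEMA3A and SEMA4B, which were lower, and SLIT3, SEMA6D, PLXNB1, PLXND1 and SEMA3B, which were higher. Over all genes the count of calls with the fold threshold went from 14 to 706 when this library was left out. Control replicate 1 correlated more with every SHC4 library than with the other controls. Leaving it out therefore tends to widen group differences, and the fit without it is not independent support. Without SHC4 replicate 1, 3 members were called (EPHB2 at -1.10, SLIT2 at -1.67 and PLXNB1 at 1.13; 4.92% of members), beside 63 genes over all (0.274%), and without any other single library none was. The 8 members in the plot of left-out libraries kept their direction in each of the 6 fits. For all of them but EPHA2 the groups do not overlap, so leaving out a library could not have turned the direction. SLIT3 lay between 1.36 and 2.36 and SLIT2 between -1.67 and -1.14.

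**Figure D4:**
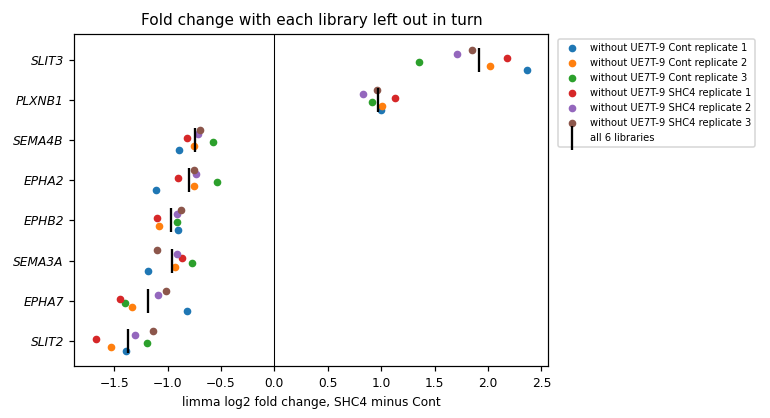
limma log2 fold change (UE7T-9 SHC4 minus UE7T-9 Cont) of the 8 guidance genes with a DESeq2 adjusted p below 0.05, with each library left out in turn (coloured points) and with all 6 libraries (black line). No point crosses 0, which was fixed beforehand for every gene but EPHA2, as their groups do not overlap. The widest range is that of SLIT3, from 1.36 to 2.36.

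A second list held co-receptors, further ligands and intracellular partners of these systems, of which 88 of 93 were listed and 86 tested. limma and edgeR called none of them, and at an unadjusted limma p below 0.05, 10 were higher (11.6%, beside 7.47% of all genes) and 5 lower (5.81%, beside 6.96%). The neuropilins, the co-receptors of class 3 semaphorins, had limma log2 fold changes of 0.03 (NRP1) and -0.26 (NRP2). DESeq2 gave 5 of 79 an adjusted p below 0.05 (6.33%, beside 4.14% of all genes). FLRT3, a membrane protein that binds ROBO1 and UNC5 receptors, was lower, at 95.5, 175 and 214 normalized counts in the controls and 46.6, 36.6 and 53.6 in UE7T-9 SHC4 (limma log2 fold change -1.74 ± 0.32 SE, adjusted p = 0.102, DESeq2 adjusted p = 0.000101). MICAL1, an actin-oxidizing enzyme downstream of plexins, was higher, at 969, 652 and 569 beside 1416, 1321 and 1180 (limma log2 fold change 0.87, DESeq2 adjusted p = 0.0121). The tyrosine kinase FES, a partner of semaphorin signalling, was higher, at 509, 464 and 513 beside 715, 703 and 730 (limma log2 fold change 0.53, DESeq2 adjusted p = 0.0142). For all 3 of these genes the groups did not overlap.

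HAVCR2, an immune checkpoint receptor, was at 33.1, 12.9 and 17.7 beside 37.8, 180 and 151 normalized counts (DESeq2 adjusted p = 0.00108), and RGMA, a ligand of NEO1, at 50.7, 37.7 and 31.5 beside 59.8, 134 and 94.3 (DESeq2 adjusted p = 0.0377). In both genes SHC4 replicate 1 lay close to control replicate 1. The cell adhesion molecule L1CAM at a limma log2 fold change of 1.57, the small GTPase RRAS at 0.60 and the RAC exchange factor TIAM1 at -0.61 had groups that did not overlap but no adjusted p below 0.05 with any of the 3 tools (DESeq2 adjusted p 0.0584, 0.0760 and 0.0653).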

How the data were processed

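RNA was extracted with RNeasy and DNase, made into 3 libraries per group with the NEBNext Ultra kit and sequenced on a NovaSeq by Novogene. The submitters' processing notes name HISAT2 2.0.5, featureCounts 1.5.0-p3 and DESeq2; the genome build, annotation and strand setting are not given in the sources used here. The values the authors deposited are a signal, namely read counts divided by a size factor of each library (normalized counts). Within a library every value was a whole number of steps of its smallest nonzero entry (tolerance 0.01 reads, 100% whole), which gave back the reads. All 28181 gene identifiers matched GENCODE 29 (GRCh38).

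The test was limma 3.58.1 (run in R 4.3.3, lmFit followed by eBayes with a trend) on log2(normalized count + 1), for 23040 genes with a mean of at least 1, which left out 5141. A fold change on this scale understates that of low genes. Adjustment was by Benjamini-Hochberg over all genes tested, and a call needed both an adjusted p under 0.05 and a log2 fold change beyond 1. DESeq2 1.42.0 and edgeR 4.0.16 (quasi-likelihood) were alternatives on the recovered reads, as were other scalings, filters and pseudocounts, a replicate block and leaving out each library. The DESeq2 count without a fold threshold was added after the data were seen. The fits were tested on simulated data. Exon lengths are the union of GENCODE exons.

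Values in every library are given for members with an adjusted p below 0.05 by any of the tools, members with an unadjusted limma p below 0.05 and groups that do not overlap, and the most abundant member per kb of each family. The members and lists were chosen with earlier results of these data known. The replicate numbers were not taken as pairs, and the check of this and the fit with the replicate block stand in the closing section. A further marker list is not reported here.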

Additional observations from a re-analysis of the deposited data

How the results depend on the processing

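Among 266 pairs of a named guidance gene and an alternative, 243 kept their direction and side of the threshold, 11 passed it only under the alternative and 12 turned direction. No named guidance gene passed the threshold with limma and all libraries, so none could fall below it. Genes whose groups do not overlap could not turn with a library left out. The agreement was therefore partly fixed beforehand. The count of genes called over all genes (14) was 355 with DESeq2, 24 with library size scaling, 24 with TMM, 40 with no filter, 39 with the replicate block, 669 with DESeq2 and no fold threshold, and 2 to 706 with a library left out. The count of guidance genes called (0) was 3 with DESeq2, 8 with DESeq2 and no fold threshold, 1 with the replicate block (EPHA7) and 0 to 5 with a library left out; edgeR, with 10 genes over all, called none. With a library left out, guidance genes with an unadjusted p below 0.05 numbered 10 to 23 and those whose groups do not overlap 15 to 28. No share over all genes stands beside these counts, and groups with fewer libraries separate more easily. The counts therefore describe the fits and are not a result about the members. The median log2 fold change of the guidance genes was 0.079 to 0.22 with a library left out and 0.081 with library size scaling. SHC4 lay between 9.88 and 10.61 with a library left out. With the replicate block, EPHA7, EPHB2 and SEMA3A had an adjusted p below 0.05 (0.0494, 0.0483 and 0.0487). Whether the numbers pair the libraries depended on the genes used: same-numbered deviations from the group means correlated at 0.148, 0.0130 and -0.00696 over the 23040 genes tested and at 0.409, 0.146 and 0.149 among 12678 genes with a mean of at least 50, where control replicate 2 correlated best with SHC4 replicate 3 (0.517) and not with its own number.

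Over the left-out libraries, 17 of the 61 tested members took both signs, none of which had an unadjusted limma p below 0.05 with all libraries; NTN1 (0.37) ranged from -0.41 to 1.22. Of the members named with every value, 3 turned. SEMA7A (-0.02) went to 0.042 with DESeq2, 0.047 with edgeR, 0.25 without control replicate 1, 0.21 without SHC4 replicate 2 and 0.15 without SHC4 replicate 3, and lay from -0.42 to 0.25 over the left-out libraries. NTN4 (0.00) went to -0.062 with DESeq2, -0.058 with edgeR, -0.10 with library size scaling, -0.26 without control replicate 1, -0.02 without control replicate 3 and -0.10 without SHC4 replicate 3, within a range of -0.26 to 0.29. EFNB1 (-0.11) went to 0.041 without SHC4 replicate 1, within a range of -0.19 to 0.041. The cause was not tested. Depth limits the genes under about 10 normalized counts, such as SEMA3G, EFNB3 and EPHA6, where 3 reads are a large part of the value.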
